A study of Rhipicephalus microplus with 8 samples.

Results

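The transcripts described here are those of the cattle tick Rhipicephalus microplus that lay well below a common reference pool in feeding larvae and in feeding nymphs alike. A feature of the array was a member when its log2 ratio of tick over pool was -1.5 or lower on each of 8 arrays, and when the mean of the larva arrays minus the mean of the nymph arrays lay between -1 and 1. It also had to carry a probe name, which was found by matching that difference of means to the authors' deposited larvae against nymph log2 fold change. Of 13459 array features, 184 met both limits on the ratios, and 142 of these had a name through all 8 arrays. These 142 are the members, among 6516 probes that could be named in the same way. The larva and nymph ratios chose the members, so they are given as a description. The fit of larvae against nymphs over all features is given as a count of members beside its background, and nothing is read from it.

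The 8 two-colour arrays held whole larvae taken from Holstein-Friesian cattle 4 days after infestation and whole nymphs taken at 7 days, both of mixed sex and of the Mozambique strain. There were 2 biological replicates of larvae and 2 of nymphs, with a technical repeat array for each. The tick RNA carried Cy5 and the pool Cy3 on every array. The pool, also of the Mozambique strain, held ticks of several ages (days 4, 5, 7, 13 and 15) of mixed sex, together with adult female tissues taken on day 20. The authors' deposited tables add 3 groups coded G, O and S, which the labels do not spell out. The series' design text speaks of tissues compared with the pool, but no label ties a code to a tissue, an age or a number of samples.

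The cattle tick is a one-host parasite: it attaches as a larva and moults to nymph and adult without leaving the animal, and the engorged female then drops off to lay eggs. Whole immature ticks therefore hold the organs of a growing juvenile, whereas an adult female also holds organs that have matured for egg production. In a reference-pool design every sample is read as a ratio to one mixture, so a negative log2 ratio means that the transcript made up a smaller share of the sample's RNA than of the pool's. A source that itself makes up a given share of the pool can exceed the pool at most by the reciprocal of that share. In whole bodies, fewer cells of a type and less RNA per cell cannot be told apart.

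The probes carry contig, consensus or expressed-sequence-tag names, and the files do not pair them with genes. Of the members, 116 are named as contigs, 10 start with CK, 10 with CV, 4 with TC and 2 with EW. Contig names made up 81.7% of the members and 72.8% of the 6516 named probes. No member name matched the reference gene table (0 matches), so no gene function or genome position is given, and the whole-body label could not be checked against marker genes. Probe sequences were not used here.

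The members lay far below the pool in both stages. Their larva means ran from -5.28 to -1.71 with a median of -2.99, which corresponds to 7.95-fold less than the pool. Their nymph means ran from -5.11 to -1.72 with a median of -2.79, or 6.92-fold less. Over the 6516 named probes the medians were -0.05 in larvae and -0.08 in nymphs. On single arrays, the median of the members stood at -3.27 and -3.20 on the 2 arrays of larva replicate 1 and at -2.72 and -2.98 on those of larva replicate 2. The nymph arrays gave -2.78 and -2.64 in replicate 1 and -3.21 and -2.85 in replicate 2. The arrays of the stages thus overlapped. The mean over all 8 arrays was at or below -3 in 61 members.

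Replicates of a stage differed more over the members than over all named probes. The absolute difference between biological replicates had a median of 0.43 in larvae and 0.40 in nymphs over the members, against 0.19 and 0.29 over the 6516 named probes. Between the technical arrays of a replicate the members' median difference lay between 0.16 and 0.36. The stage means of the members differed by a median of 0.33, which is no larger than the difference between replicates. Nymphs were above larvae in 94 of the 142 (66.2%), against 51.3% of all named probes. The rule bounds the stage difference, so these values describe the set only.

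**Figure D1:**
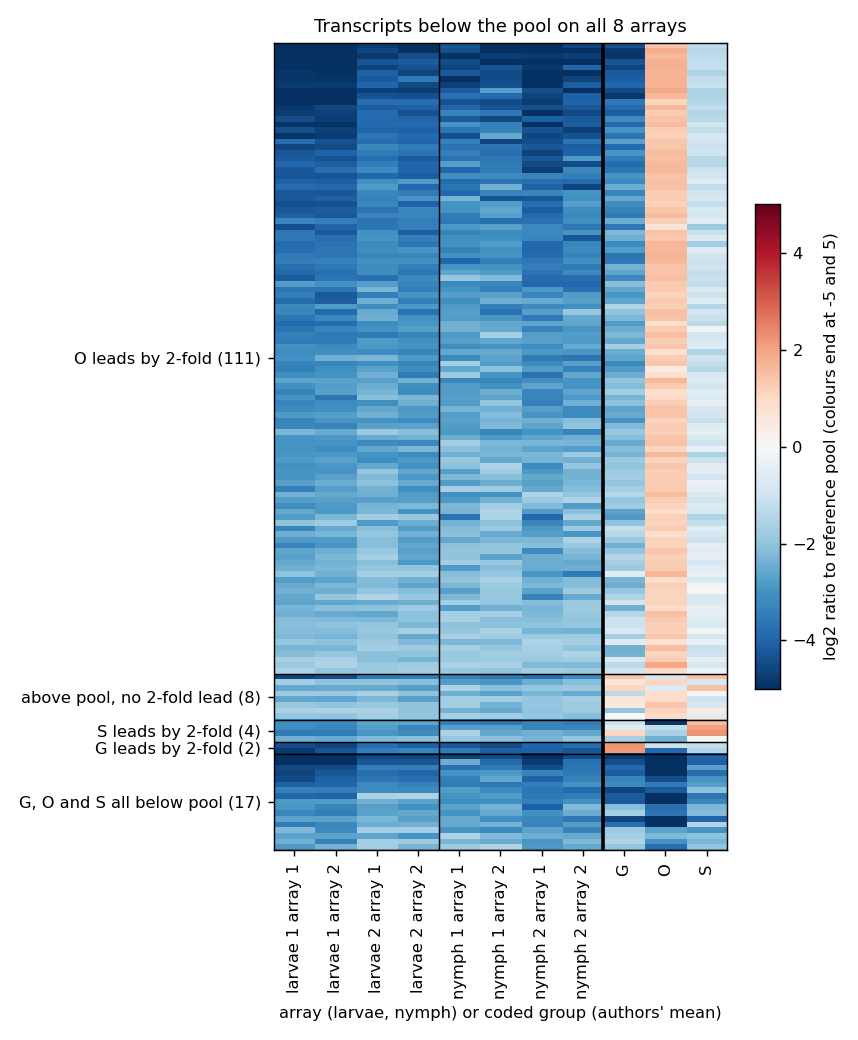
Log2 ratio to the reference pool of the 142 members (rows, grouped by pattern and sorted by the mean over 8 arrays) on the 8 larva and nymph arrays and in coded groups G, O and S (columns; the authors' means, recovered from their tables). The colour scale ends at -5 and 5. The 111 rows led by O are blue on the arrays and in G, red in O and pale blue in S.

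The question for these transcripts is which of the coded groups carried them. A level of G, O or S relative to the pool was recovered for each member as its larva mean minus the authors' deposited larvae-minus-group log2 fold change. The route through the nymph mean gave the same level to within 1.3e-08. The larva arrays cancel in this step, so differences among G, O and S use no array of the rule. Each level is the authors' mean, with no replicate values, SD or n, and no p-value for G against O or S was used here. Levels against the pool also assume that G, O and S were hybridised against the same pool.

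Coded group O carried most of the members. O was the highest of the 3 groups for 117 of the 142 (82.4%), S for 17 and G for 8. Over all 6516 named probes the groups were nearly even, with O highest for 35.0%, G for 35.0% and S for 30.0%. With a lead of at least 2-fold over the next group, O led for 111 members (78.2%), S for 7 and G for 2. The same 2-fold lead was found for 9.81% of all named probes in O, 6.09% in S and 5.71% in G. The median difference O minus G was 3.35 on the log2 scale over the members and -0.16 over all named probes. The median difference O minus S was 2.08 against -0.14.

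Most members were above the pool in one coded group alone. The highest group lay above the pool (a log2 ratio over 0) for 125 members, or 88.0%, against a background of 82.7% of all named probes. A level at least 2-fold above the pool was reached by 110 members (77.5%), against 17.2% of all named probes. O alone was above the pool for 111 members (78.2%), a pattern held by 18.5% of all named probes. G alone was above it for 2 members, S alone for 3, G with S for 3, G with O for 4 and O with S for 2. No member was above the pool in all 3 groups (0 of 142), a pattern held by 15.5% of all named probes. The remaining 17 members were below the pool in all 3 groups. Members were chosen by low ratios to the same pool, so these shares are a description and not independent of that choice.

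**Figure D2:**
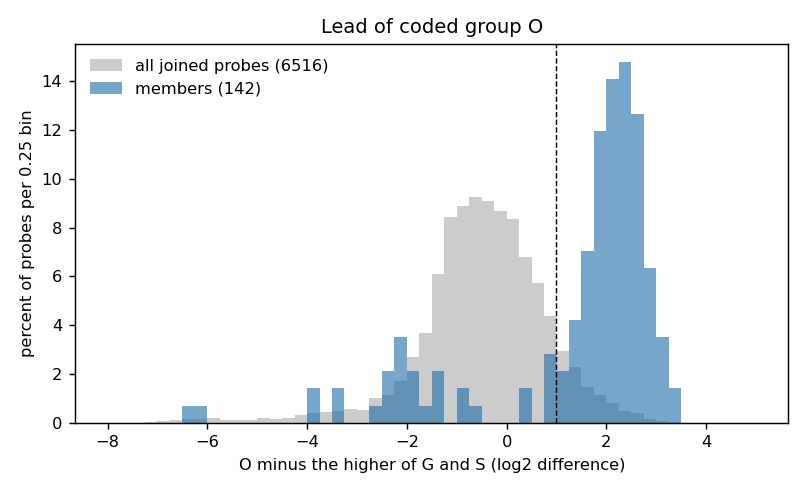
Distribution of the log2 difference between coded group O and the higher of G and S, as the percent of probes in bins of 0.25, for the 142 members (blue) and all 6516 named probes (grey). The dashed line marks a 2-fold lead of O, which 111 members passed.

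The 111 members led by O by 2-fold, a lead that picked them, spanned a narrow range in O and a wider one in G. Their level in O had a median of 1.29, or 2.45-fold above the pool, with quartiles of 1.17 and 1.496 and a range of 0.48 to 1.95. Of the 111, 99 lay between 1 and 2, against 6.72% of all named probes. Levels above 2 in O were rare on the whole array. Of the 440 named probes at least 2-fold above the pool in O, 438 lay between 1 and 2. In S they had a median of -0.91 (range -1.81 to 0.07), and in G a median of -2.48 (range -4.86 to -0.54). All 111 followed the order O above S above G. Since O led by choice, S above G was the part free to vary, and the same order was followed by 398 (76.4%) of the 521 other named probes that O led by 2-fold above the pool. The lead of O, here always over S, had a median of 4.69-fold, and O exceeded G by a median of 13.2-fold and at most by 100.2-fold. O stood alone above the pool in 110 of them. The exception, Contig776, lay at 0.07 in S and was singled out after its values were seen.

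Of the 3 coded groups, G lay nearest to the immature stages in these transcripts, by the medians of the differences, although mostly above them. G was at or below the rule's ceiling of -1.5 in 97 of the 111 members led by O, as it was in 10.8% of all named probes. It lay within 2-fold of both stage means in 81 of the 111, a closeness that 58.4% of all named probes also showed. G was above both stage means in 82 of the 111 (73.9%) and below both in 8 (7.21%), against 42.9% and 36.3% of all named probes. In the authors' deposited tables both stages were lower than G, with an adjusted p under 0.05, for 37 of the 111, against a background of 26%. Its median excess was 0.62 over larvae and 0.45 over nymphs on the log2 scale. S was above both stage means in all 111, against 39.3% of all named probes, by a median of 2.26 over larvae and 1.91 over nymphs, and was at or below -1.5 in 7. O exceeded larvae by a median of 19.8-fold and nymphs by 16.2-fold. Differences between a coded group and a stage involve the arrays that chose the members and were partly fixed by that choice.

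Among the 111 members, which were chosen by the lead of O, the level varied least in O, followed by S. The SD over the 111 members was 0.27 in O and 0.37 in S, against 0.98 in G, 0.85 in larvae and 0.84 in nymphs. This was not particular to the members. The 521 other named probes that O led by 2-fold above the pool had SDs of 0.30 in O and 0.30 in S. Their SDs were 0.76 in G, 0.88 in larvae and 0.67 in nymphs. Over all 6516 named probes the SD was 0.69 in S, 1.08 in G and 1.17 in O. Over all 142 members O varied most (SD 2.06), against 1.37 in G, 0.95 in S, 0.86 in larvae and 0.82 in nymphs. When the 111 were ordered by their mean over the 8 arrays and divided into 3 sets of 37, the lowest set (-5.09 to -3.38) had medians of 1.49 in O, -1.20 in S and -3.56 in G. The middle set (-3.37 to -2.58) had medians of 1.29, -0.95 and -2.48. The highest set (-2.52 to -1.81) had medians of 1.22, -0.60 and -1.73. Transcripts with lower ratios in the immature stages thus also had lower ratios in G and, to a lesser extent, in S. Their ratios in O were slightly higher. Ratios to the pool do not rank different transcripts by abundance. Across the 111 members, the larva mean correlated with the level in G at r = 0.88, in S at 0.60 and in O at -0.43 (Spearman's rho 0.86, 0.62 and -0.45). For the nymph mean the values were 0.82, 0.52 and -0.48 (rho 0.78, 0.54 and -0.48). These are descriptions across transcripts, which are not independent replicates and share one array design and one pool.

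**Figure D3:**
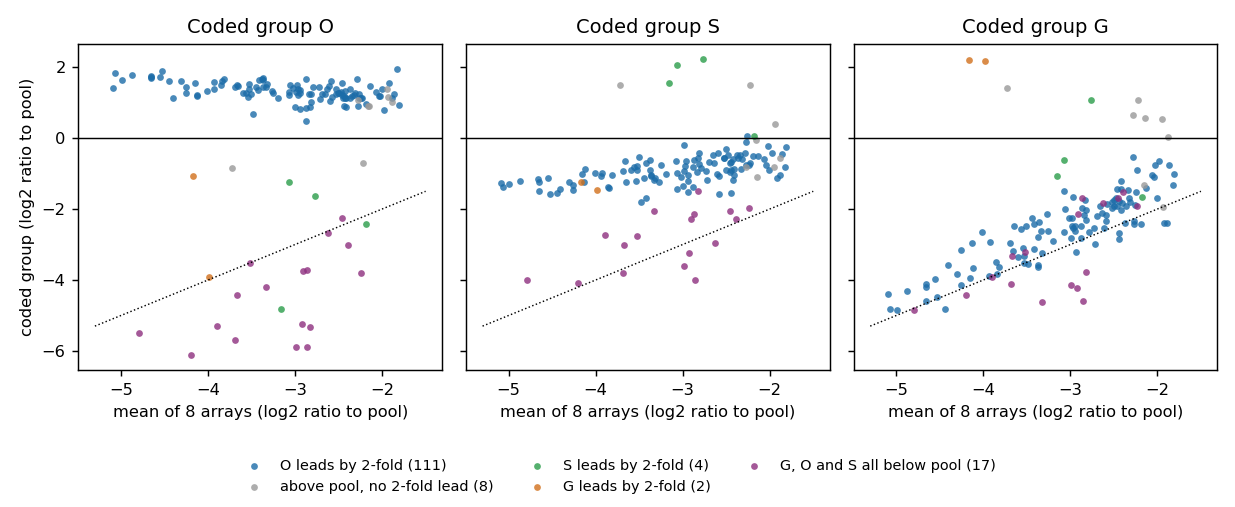
Level in coded groups O, S and G (y axis, log2 ratio to the pool) against the mean over the 8 larva and nymph arrays (x axis, log2 ratio to the pool) for the 142 members, coloured by pattern. The solid line marks the pool and the dotted line equal levels. The members led by O form a flat band between 0.48 and 1.95 in O, while their levels in G follow the dotted line.

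The members with the lowest ratios in the immature stages were of this kind. CK185778 had the lowest mean over the 8 arrays. It stood at -5.92, -5.54, -4.73 and -4.93 on the larva arrays, in the order of replicate 1 and replicate 2 with 2 arrays each, or -5.28 ± 0.64 over replicates (SD, n = 2). On the nymph arrays it stood at -4.28, -5.08, -5.70 and -4.57, or -4.91 ± 0.32 (SD, n = 2). The arrays of the stages overlapped, and the pool exceeded larvae 38.9-fold and nymphs 30.0-fold. In the coded groups its level was 1.41 in O, -1.26 in S and -4.39 in G. Contig6410 came next, at -5.38, -5.55, -4.57 and -5.14 in larvae and -4.40, -4.997, -5.34 and -5.18 in nymphs. Its stages overlapped too, and its levels were 1.84 in O, -1.39 in S and -4.80 in G. For this contig O exceeded G 100.2-fold, which sets the upper end of the range given above.

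The largest leads of O were those of Contig8884 and Contig2208. Contig8884 read -5.12, -5.31, -4.68 and -4.73 in larvae and -4.17, -2.74, -4.45 and -5.01 in nymphs. The second array of nymph replicate 1 lay above its other arrays, and its nymph replicates had an SD of 0.90. Its level was 1.89 in O, -1.58 in S and -4.49 in G, an 11.1-fold lead of O over S. Contig2208 read -3.84, -3.70, -3.18 and -3.61 in larvae and -3.04, -2.79, -3.91 and -3.27 in nymphs, with overlapping stages. Its level was 1.65 in O, -1.70 in S and -3.14 in G, and O led S 10.2-fold.

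A few members were carried by G. Contig4527 and CV443795 were the only members of the 142 that G led by 2-fold or more. Contig4527 read -4.77, -4.32, -3.47 and -3.35 in larvae and -3.54, -4.07, -4.08 and -4.28 in nymphs. Its level in G was 2.17, or 4.51-fold above the pool, against -1.47 in S and -3.91 in O. In O it was thus as low as in the immature stages, and G led by 12.5-fold. CV443795 read -4.42, -4.59, -3.82 and -4.07 in larvae and -4.26, -4.45, -3.95 and -3.79 in nymphs. Its level was 2.19 in G, -1.07 in O and -1.23 in S, a 9.62-fold lead of G. Larva and nymph arrays overlapped for both transcripts.

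Others were carried by S, with or without G. Contig7002 had the largest lead of S, 6.49-fold, with a level of 2.07 in S, -0.63 in G and -1.23 in O. It read -3.12, -3.27, -2.77 and -3.28 in larvae and -2.76, -2.74, -3.30 and -3.31 in nymphs, and the stages overlapped. Contig5338 followed with 1.56 in S, -1.07 in G and -4.81 in O. It read -3.09, -3.13, -2.64 and -2.63 in larvae and -3.41, -3.58, -3.29 and -3.51 in nymphs, so every nymph array lay below every larva array. O was its lowest group and lay below all 8 arrays. The other members led by S and above the pool were EW679672.1, at 2.23 in S and 1.08 in G, and EW679313.1, at 0.05 in S. EW679672.1, Contig6867 and Contig5592 were above the pool in G and S together and below it in O, at -1.62, -0.84 and -0.69. Contig6867 reached 1.504 in S and 1.41 in G, and Contig5592 reached 1.49 and 1.07. Apart from Contig7002 and Contig5338, the transcripts of this paragraph were singled out after their values were seen.

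**Figure D4:**
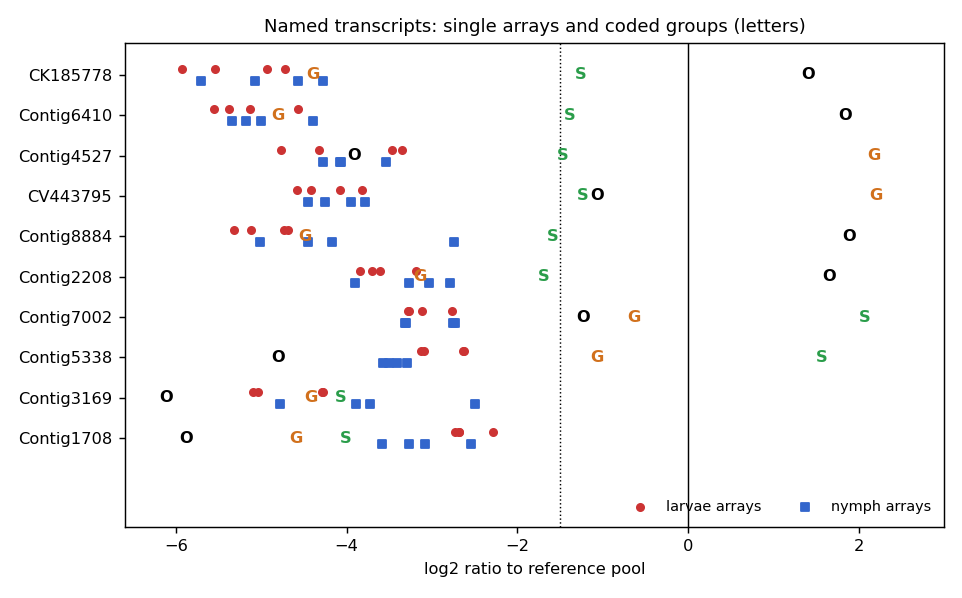
Log2 ratio to the reference pool of the 10 transcripts named by rule, on the 4 larva arrays (red circles), the 4 nymph arrays (blue squares) and in coded groups G, O and S (letters; the authors' means). The dotted line marks the ceiling of -1.5 and the solid line the pool. O lies far to the right for 4 transcripts, G for 2 and S for 2, and all letters lie left of the pool for Contig3169 and Contig1708.

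The 17 members below the pool in all 3 groups had their lowest level mostly in O. Their highest group, below the pool by choice, lay between -4.07 and -1.4999, with a median of -2.73. S was the highest group for 11, G for 6 and O for none (0 of 17). The order S above G above O was seen in 10 and G above S above O in 5. O was the lowest of the 3 groups for 15 of the 17 (88.2%), against 46.5% of all named probes. It lay below both stage means for 14 (82.4%), against 45.8% of all named probes. The latter count uses the arrays that chose the members. Only 17.3% of all named probes were below the pool in all 3 groups, so the background is an unlike set. The orders of the groups were not counted among those probes. The median level of the 17 was -4.43 in O, -3.79 in G and -2.77 in S, against -2.98 in larvae and -3.16 in nymphs. Contig3169 was the lowest in its highest group. It read -5.10, -5.04, -4.28 and -4.28 in larvae, -2.49, -3.89, -4.78 and -3.73 in nymphs, and had levels of -4.07 in S, -4.42 in G and -6.12 in O. Contig1708 read -2.69, -2.68, -2.28 and -2.73 in larvae and -2.54, -3.08, -3.27 and -3.59 in nymphs. Its levels were -4.01 in S, -4.59 in G and -5.88 in O, so all 3 groups lay below every one of its 8 arrays. In S, 3 of the 17 had a lead of at least 2-fold while below the pool: CV451921, Contig42 and TC23439, at -1.4999, -2.06 and -2.73. These 3 were singled out after their values were seen.

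The authors' deposited tables set the same members against each coded group with an adjusted p under 0.05. These comparisons share the larva and nymph arrays that chose the members, so the counts are a description. In the authors' deposited tables, both stages were lower than O for 121 members (background 30.6% of all named probes), lower than S for 129 (background 20.1%) and lower than G for 52 (background 26% of all named probes). Both stages were lower than all 3 groups for 46 members (background 7.89%) and lower than none of them for 9 (background 53.6%) in the authors' deposited tables. With at least 2-fold in both stages, the counts in the authors' deposited tables were 121 for O (background 15.5%), 121 for S (background 6.32%) and 24 for G (background 8.89%). The authors' deposited tables placed both stages higher than O for 12 members (background 33%), 11 of which were among the 17 without a group above the pool.

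The stages were also compared with each other, in limma on the means of technical arrays over all 13459 features. With an adjusted p of 0.05 the fit called 3 of the 142 members, against a background of 28.2% of all features. The rule used these arrays and holds the stage difference between -1 and 1, so neither the count nor a direction is read from it. With the ratios as deposited, 1 of the 3 was higher in larvae and 2 in nymphs. With quantile normalisation limma called 3 members, all 3 higher in larvae (background 24.2%). With arrays centred on their median it called 16, all 16 higher in nymphs (background 29.4%). With all arrays as independent it called 24 (background 45%), and with robust variance moderation 3 (background 27.8%). The count was 1 without larva replicate 1 (background 19.2%), 0 without larva replicate 2 (background 19.8%; 14 members at an unadjusted p under 0.05), 1 without nymph replicate 1 (background 24%) and 10 without nymph replicate 2 (background 31.5%). The authors' deposited table gave an adjusted p under 0.05 for 38 members (background 48.5%).

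Features near the limits of the rule were examined as well. The members closest to the ceiling were CK188814, with a highest array of -1.51, and Contig8103, with -1.52. Just outside were Contig236 and Contig39, with a highest array of -1.499 and -1.489. The largest stage difference inside the window was -0.99 for EW679672.1, and the smallest outside it was 1.05 for CV453635. Of the 42 features that met the ratio limits without a name through all 8 arrays, 35 could be named through 5 to 7 arrays and 7 could not be named. O led by 2-fold for 26 of these 35, with a median level of 1.24 in O. Of the 15 named features below the ceiling but outside the stage window, O was highest for 4, S for 9 and G for 2. The difference from the members was not tested.

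Group O also led elsewhere on the array. O was above the pool with a 2-fold lead for 632 named probes, of which 111, or 17.6%, were members. The other 521 had a median level of 0.97 in O, -0.49 in S and -0.87 in G, against 1.29, -0.91 and -2.48 for the members. Their stage medians were -0.82 in larvae and -0.87 in nymphs. Of the 440 named probes at least 2-fold above the pool in O, 103 (23.4%) were members.

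For 3 members the probe name ends in A or B and the array held a second probe of the same contig number. None of the second probes was a member (0 of 3). Contig199B stood at -1.98 in larvae and -2.57 in nymphs, while Contig199A stood at 0.44 and 1.499 and was lowest in O, at -0.64, where Contig199B reached 1.06. Contig46A stood at -2.50 and -2.05, while Contig46B stood at 0.19 and 0.14. Contig46A had its highest level in O, at 0.90, and Contig46B in S, at 1.43. The second probe of Contig9005A, which stood at -4.42 in larvae and 1.28 in O, had no deposited fold change. The files do not say how A and B probes of a contig differ. These transcripts were singled out after their values were seen.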

How the data were processed

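Per the file headers and values, the authors' deposited value table holds log2 ratios of sample over pool, and their 7 comparison tables hold log2 fold changes, signed linear fold changes and adjusted p-values (1 table also unadjusted p-values). Limma is named in the submitters' processing notes. How spots were scanned, background-corrected, normalised and filtered is not given in the sources used here. Signal over background is unknown, since no spot intensities were analysed. The number of arrays limits the precision. No dye swap was made.

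Names were joined by value, within 1.2e-09. Levels of G, O and S were computed from the deposited fold changes, with no test. The stage fit used lmFit and eBayes of limma 3.58.1 (R 4.3.3) on technical means, with Benjamini-Hochberg adjustment. The labels describe replicates only as biological, so p-values cover only the spread between these samples, which may be technical. Scripts were tested on simulated data. The members and lists were chosen with earlier results of these data known. Transcripts were named by rule: the 2 lowest means over 8 arrays, the 2 largest leads for each coded group and the 2 lowest highest-group levels. The rule's A and B contigs with both probes members did not occur.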

Additional observations from a re-analysis of the deposited data

Results flagged for a closer look

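Of the 10 transcripts named by rule, each examined over the 4 arrays of either stage (20 sets of arrays), 1 set had a single array far from the others. The first array of larva replicate 2 read -2.28 for Contig1708, with a gap to its nearest neighbour that was 0.897 of the range of the 4 larva arrays. About 1 such set in 20 arises by chance, and arrays of one replicate are not independent samples.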

How the results depend on the processing

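The counts by coded group that include probes named through fewer arrays were added after seeing the data. The number of members was 225 with a ceiling of -1, 83 with a ceiling of -2 and 93 with a stage window of -0.5 to 0.5, and it lay between 139 and 187 without 1 biological replicate. O led by 2-fold for 66 members with the ceiling at -2, and its share lay between 69.8% and 79.5% over both ceilings. Members led by G numbered 8 with no margin and 5 with a ceiling of -1. Members led by S numbered 17 with no margin, 4 with a 4-fold margin, 13 with a ceiling of -1 and between 7 and 12 without 1 biological replicate (12 without larva replicate 2). By the authors' deposited tables, both stages were lower than G by at least 2-fold for 24 members. Of the 3 members called between stages, 1 was higher in larvae and 2 in nymphs (background 28.2% of all features). The count became 24 with all arrays as independent (background 45%) and 14 with a random block for the biological replicate (35.1%). With arrays centred on their median it was 16 (29.4%), 0 higher in larvae and 16 in nymphs. At an adjusted p under 0.01 in limma it was 0 (16.4%). In that fit 15 members had an unadjusted p under 0.05, as did 5456 of the 13459 features. The paired fit in limma, with the replicate number as a block, called 0 members at an adjusted p under 0.05 (background 25.9%). In it 13 members had an unadjusted p under 0.05, as did 5275 of the 13459 features. Equal numbers are not tied by the labels, and replicate differences of the stages correlated at r = -0.03 over all features. Without 1 biological replicate the count lay between 0 and 10, with the lone replicate of a stage taken to vary as those of the other stage do. With quantile normalisation it was again 3, now 3 higher in larvae and 0 in nymphs (24.2%). For these changes the cause was not tested. The other 63 recomputed counts and medians stayed within 1.5 times the reported value or within the replicate spread, the A and B partner probes included, and the leads of the 10 transcripts named by rule kept their direction with the coded groups centred. Signal over background, which limits how low a ratio can be read, is unknown.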
